A study of Cucumis melo with 4 samples.

Results

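In 2 melon cultivars (Cucumis melo), BXC and YL, 127 gene loci were transcribed in one cultivar and at or close to 0 in the other. They were selected on the deposited expression values themselves. A locus had to carry exactly 1 MELO3C gene identifier, lie on a scaffold, reach at least 1 RPKM (a read count divided by transcript length and by library size) in both libraries of one table, and stay below 0.05 RPKM in both libraries of the other. Of 25827 loci with 1 identifier on a scaffold, 36 were expressed in table B only and 91 in table Y only. They are called B-only and Y-only loci below, and they carry 123 distinct identifiers. Tables B and Y are tied to BXC and YL by their letters, which begin the sample titles of those cultivars and no others.

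Each cultivar gave 1 salt-stressed and 1 control library, so 4 libraries were sequenced and none has a replicate. Plants of both cultivars grew in a greenhouse, and the stressed ones received sodium chloride raised by 75 mM a day, to 150 and 300 mM. The sources used here do not give the level a stressed plant reached, the plants' age or the tissue. The columns of each table are numbered and do not say which library was salt-stressed. Values are therefore given for the second and the first library of a table, changes are second over first, and their direction relative to salt cannot be told. The libraries of a table differ in treatment and are not repeats of each other.

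Cultivars of one crop commonly differ in which genes they transcribe. A gene can be missing from a cultivar's genome, present and silent, or so diverged in sequence that its reads no longer align to a reference genome made from another line. Melon is a diploid cucurbit whose cultivars differ in fruit form and in tolerance of salt. Sequencing of messenger RNA alone does not separate these states, and fewer cells of a type cannot be told apart from less RNA per cell. The MELO3C identifiers come without gene names: 0 of the 123 occurred in the RefSeq table of 28628 genes, so no function is given to any locus and tissue markers could not be checked.

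The B-only loci were 0.285% of the 12648 loci at 1 RPKM or more in both B libraries. The Y-only loci were 0.716% of the 12712 such loci in Y. These percentages follow from the rule and describe it. For comparison, 11746 loci reached 1 RPKM in all 4 libraries and 6269 were listed at 0 in all 4. In the other table, 35 of the 36 B-only and 91 of the 91 Y-only loci were listed at 0 in both libraries. The exception was MELO3C016640, with 1.05 RPKM in the second and 1.44 RPKM in the first B library. In Y it had 0.0216 and 0.0195 RPKM, in the same order. For all but long transcripts, the limit of 0.05 RPKM allows little besides an exact 0. Judged from the lowest values, 1 read in a transcript of 1 kb was worth about 0.298 RPKM in the first B library. It was worth about 0.233 RPKM in the second B library, and 0.145 and 0.0972 RPKM in the first and second Y libraries.

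**Figure D1:**
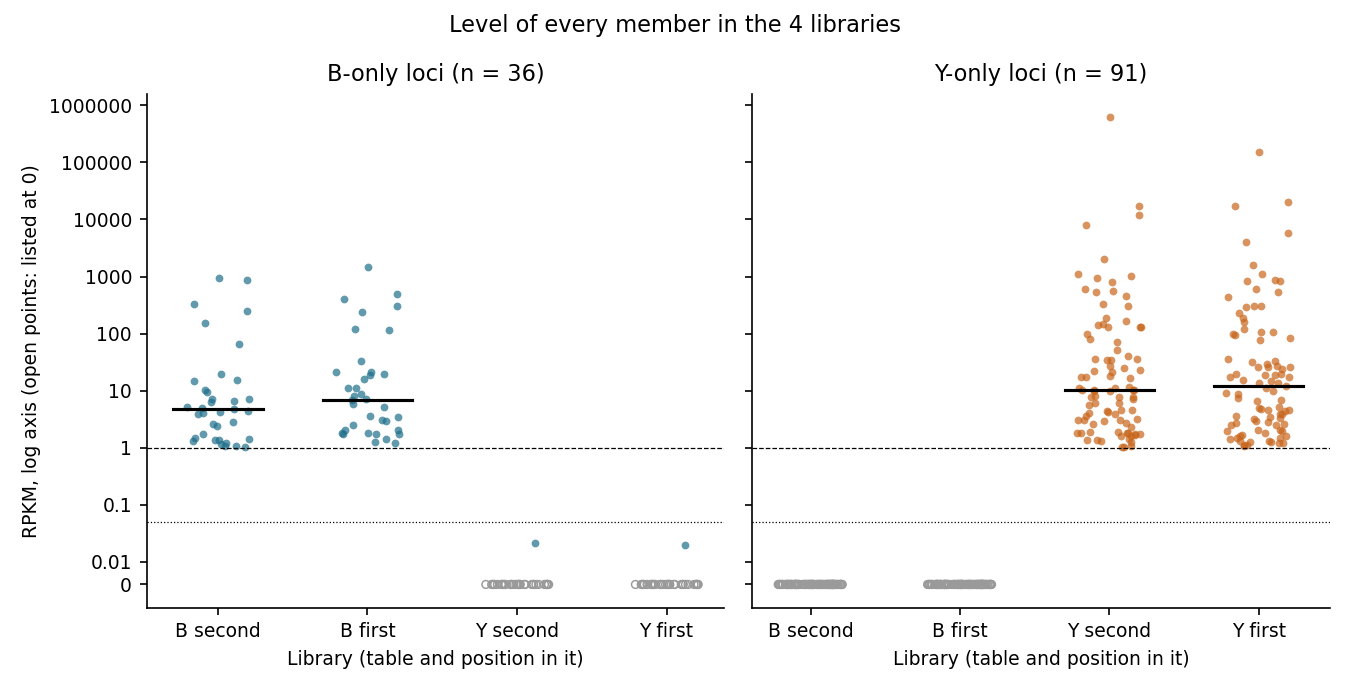
RPKM (log axis) of each B-only locus (left panel) and each Y-only locus (right panel) in the second and first libraries of tables B and Y. Bars are medians in the expressing libraries, open points are loci listed at 0, the dashed line is 1 RPKM and the dotted line 0.05 RPKM. The B-only loci centre on 4.67 and 6.91 RPKM and the Y-only loci on 10.1 and 12.1 RPKM, with 1 B-only locus above 0 in the other table.

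B-only loci were mostly weakly expressed. Their median was 4.67 RPKM in the second and 6.91 RPKM in the first B library, against 12.6 and 13.7 RPKM over all loci expressed in B. They ran between 1.02 and 951 RPKM in the second library and between 1.20 and 1466 RPKM in the first. By the mean of both libraries, 15 of 36 lay below 5 RPKM (41.7%, against 19.4% of all expressed loci) and 6 reached 100 RPKM (16.7%, against 9.01%). The list is thus heavier at both ends than the expressed loci as a whole.

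The 6 highest B-only loci fell into a few kinds. MELO3C009174 had 951 RPKM in the second and 1466 RPKM in the first B library. MELO3C010360 had 872 and 503 RPKM, and MELO3C008570 had 153 and 120 RPKM, in the same order. Each of these 3 shares its region with another locus that was also read in Y. MELO3C027305, in a region of 186 bp on scaffold01104, had 329 and 404 RPKM. MELO3C026033, in 237 bp on scaffold00086, had 247 and 299 RPKM. These 2 short loci have a region of their own and differed little between the B libraries. MELO3C003385 had 2.63 RPKM in the second library and 239 RPKM in the first, so its place in the top 6 rests on the first library alone.

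Y-only loci sat closer to the level of ordinary expressed loci and had a longer upper tail. Their median was 10.1 RPKM in the second and 12.1 RPKM in the first Y library, against 11.4 and 14.7 RPKM over all loci expressed in Y. By the mean of both libraries, 21 of 91 reached 100 RPKM (23.1%, against 8.65%) and 27 lay below 5 RPKM (29.7%, against 17.8%). As in B, both ends were fuller than in the background.

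The highest Y-only value belonged to MELO3C019735, a region of 105 bp at scaffold00039:2998327-2998431, with 628927 RPKM in the second and 149483 RPKM in the first Y library. The second-library value was also the highest of all loci expressed in Y. MELO3C022991, 240 bp on scaffold00057, had 17448 and 20342 RPKM, in the same order. MELO3C003737, 147 bp on scaffold01596, had 11977 and 5746 RPKM. All 3 regions are very short, and RPKM divides by length. MELO3C017800 had 952 and 4033 RPKM in a region of 5573 bp shared with MELO3C017799. MELO3C003991 at XLOC_004462 had 1989 and 305 RPKM. The sixth of the highest, MELO3C004289, is given with its region further on.

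Loci near the limits differed little from those beyond them. Just inside 1 RPKM stood MELO3C025289, with 1.02 and 1.20 RPKM in the second and first B libraries, and MELO3C016640. Just outside stood MELO3C026416, with 0.977 and 1.38 RPKM, and MELO3C008787, with 0.884 and 1.21 RPKM. In Y, MELO3C011267 was just inside with 1.04 RPKM in the second and 9.65 RPKM in the first library, as was the second locus of MELO3C003991 with 1.03 and 1.23 RPKM. MELO3C020838, with 0.925 and 1.68 RPKM, and MELO3C019241, with 0.883 and 12.1 RPKM, were just outside. The limit of 0.05 RPKM left out MELO3C022116, at 0.102 RPKM in the second Y library, and MELO3C018851, at 0.169 RPKM in the first. On the other side it left out MELO3C024736, at 0.0646 RPKM in the second B library, and MELO3C003990, at 0.0857 RPKM there. Both of the last pair were listed at 0 in the first B library. Since nearly every member is at exact 0, MELO3C016640 was the one member close to that limit, and the other loci inside it, such as MELO3C002391, MELO3C001934 and MELO3C002170, were at 0.

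The depth of the libraries bears on these zeros. Total reads are not given in the tables, but the lowest values were taken to mark what 1 read is worth. Read that way, the first Y library was 2.23 times as deep as the first B library, and the second Y library 2.81 times as deep as the second B library. A B-only locus therefore faced deeper libraries in Y, and a Y-only locus shallower ones in B. Had each member been as high in the other table as in its own, at most 9.12 reads would have been counted there for the weakest B-only locus and at most 4.55 for the weakest Y-only locus, over both libraries. No member's upper limit fell below 3 reads, the count that a 0 allows, but the true number can be lower. How many members would have passed 3 reads therefore cannot be told. Given that worth of a read, the read numbers are upper limits, because a transcript can be shorter than its region. They cover counting error only. The worth is an estimate: MELO3C016640, with 0.0216 and 0.0195 RPKM over 1697 bp in Y, lay below it. If 1 read is worth less, the read numbers are too low. In the expressing table, 15 of the 36 B-only loci and 9 of the 91 Y-only loci rested on fewer than 10 reads, at most, in their lower library.

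The B-only and Y-only loci sat differently in the annotation. Of the B-only loci, 24 of 36 had a region overlapped by no other locus and an identifier listed nowhere else. Of the Y-only loci, 23 of 91 did. These 24 and 23 loci were 0.260% and 0.251% of all such loci expressed in B and in Y, close to each other. Among the remaining expressed loci the shares were 0.352% for the 12 other B-only loci, of 3409, and 1.91% for the 68 other Y-only loci, of 3554. The greater number of Y-only loci lay among those that share a region or an identifier with another locus.

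Most of the 68 had a partner transcribed in the cultivar where they were silent. A partner is taken here as the overlapping or same-identifier locus with the highest value in the other table. Of the 91 Y-only loci, 59 had a partner at 1 RPKM or more in B (64.8%). In 36 of these cases the partner carried the member's own identifier and no other. Of the 36 B-only loci, 5 had a partner at 1 RPKM or more in Y (13.9%). The same shares over all expressed loci were not computed, and taking the highest partner favours expressed ones. The exact region was shared with another locus for 27.8% of B-only loci, against 22.3% of all loci expressed in B. It was shared for 60.4% of Y-only loci, against 22.9% in Y. For those 59 Y-only loci the partner's mean was within 2-fold between the tables in 54 cases, a share not computed for other loci. The member's mean in Y was above that of its partner in 31 cases and below it in 28.

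**Figure D2:**
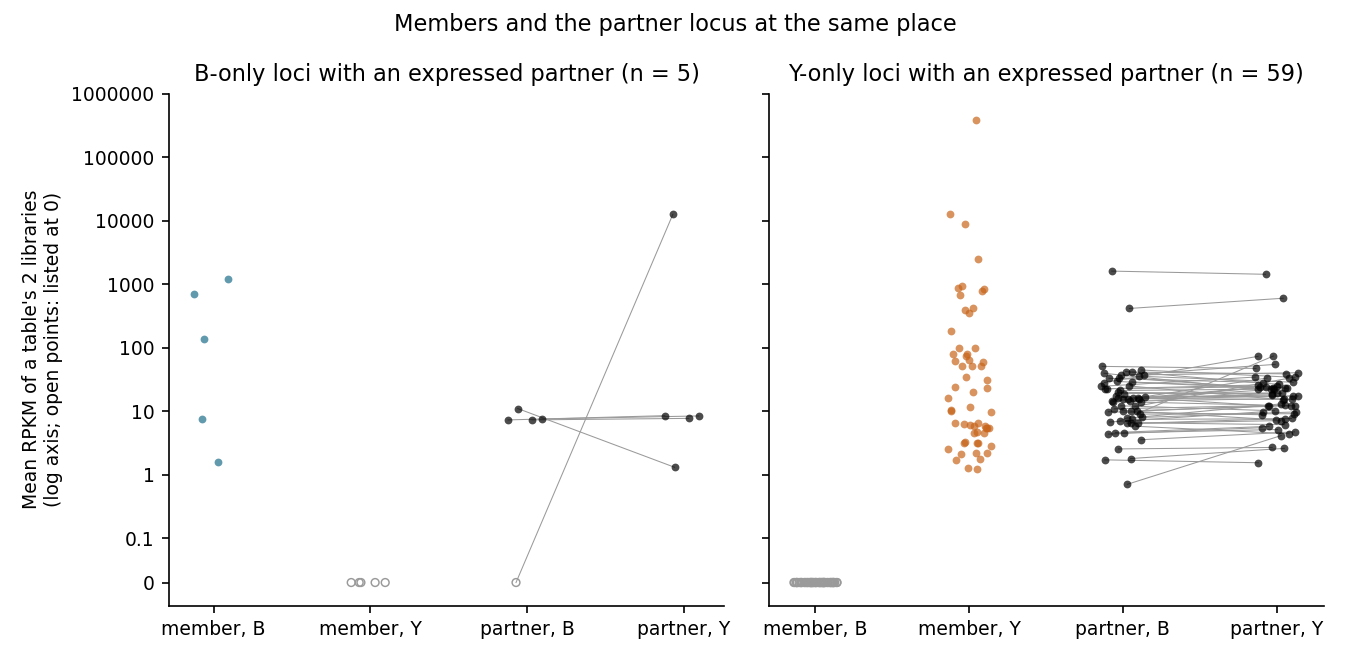
Mean RPKM of each table's 2 libraries (log axis, open points listed at 0) for members with an expressed partner and for the partner itself, in B and in Y, with lines joining each partner's values. Of the 59 partners of Y-only loci, 54 stay within 2-fold between the tables, while their members are at 0 in B.

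MELO3C002170 is an example. At XLOC_003675 (scaffold00001:1706753-1712014) it was listed at 0 in both B libraries and had 452 RPKM in the second and 876 RPKM in the first Y library. XLOC_002817, with the same identifier and the same region, had 14.0 and 14.3 RPKM in the second and first B libraries, and 12.6 and 53.8 RPKM in the second and first Y libraries. Unlike most partners of Y-only loci, XLOC_002817 had a mean more than 2-fold higher in Y than in B. An identifier silent at one locus was still read at another in all 4 libraries. MELO3C019735 was alike: a second locus of that identifier, 321 bp away, had 420 and 406 RPKM in B, and 762 and 433 RPKM in Y. At the 13 Y-only loci with a region of their own and an identifier listed elsewhere, the other locus lay between 18 and 1969 bp away, with a median of 351 bp. Of these 13, 9 had an other locus at 1 RPKM or more in B.

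The identifier MELO3C004289 stood in both lists. Its locus XLOC_004617 was B-only, with 6.39 RPKM in the second and 8.88 RPKM in the first B library. Its locus XLOC_004616 was Y-only, with 7941 RPKM in the second and 17043 RPKM in the first Y library. Both span the same 199644 bp of scaffold00003 (5779041-5978684), together with other loci, one of which was read in all 4 libraries: MELO3C004294 had 16.7 and 62.1 RPKM in B, and 1.02 and 42.9 RPKM in Y. Taken by identifier, this gene was expressed in both cultivars.

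A few places were silent across every partner in the other table. This held for 7 B-only loci of 6 identifiers and for 5 Y-only loci of 4 identifiers. Both loci of MELO3C019669, in the same 1589 bp of scaffold00039, were B-only: XLOC_022181 had 14.8 RPKM in the second and 1.75 RPKM in the first B library, and XLOC_022272 had 4.10 and 5.72 RPKM. Both loci of MELO3C012719, in the same 4838 bp of scaffold00017, were Y-only: XLOC_014117 had 142 and 830 RPKM in the second and first Y libraries, and XLOC_013967 had 4.04 and 8.68 RPKM. At these places no overlapping locus reached 0.05 RPKM in the other table. Around MELO3C003991 the silence was close to complete. Its 2 loci were Y-only, and MELO3C003990, in the same region as the first, had 0.0857 RPKM in the second and 0 in the first B library, against 31.1 and 6.30 RPKM in the second and first Y libraries.

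The 47 loci with a region and an identifier to themselves were short. Their median region was 701.5 bp for B-only and 371 bp for Y-only loci, against 3542 and 3543 bp for all such loci expressed in B and in Y. Of the 24 B-only ones, 11 spanned less than 500 bp (45.8%, against 1.42%), and of the 23 Y-only ones, 13 did (56.5%, against 1.53%). Over all members, 30.6% of B-only and 25.3% of Y-only regions were below 500 bp, against 1.60% of loci expressed in B and 1.90% in Y. Put the other way, members made up 5.45% of the 202 expressed loci below 500 bp in B and 9.54% of the 241 in Y. The region length was not used in the rule, although RPKM is divided by transcript length.

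**Figure D3:**
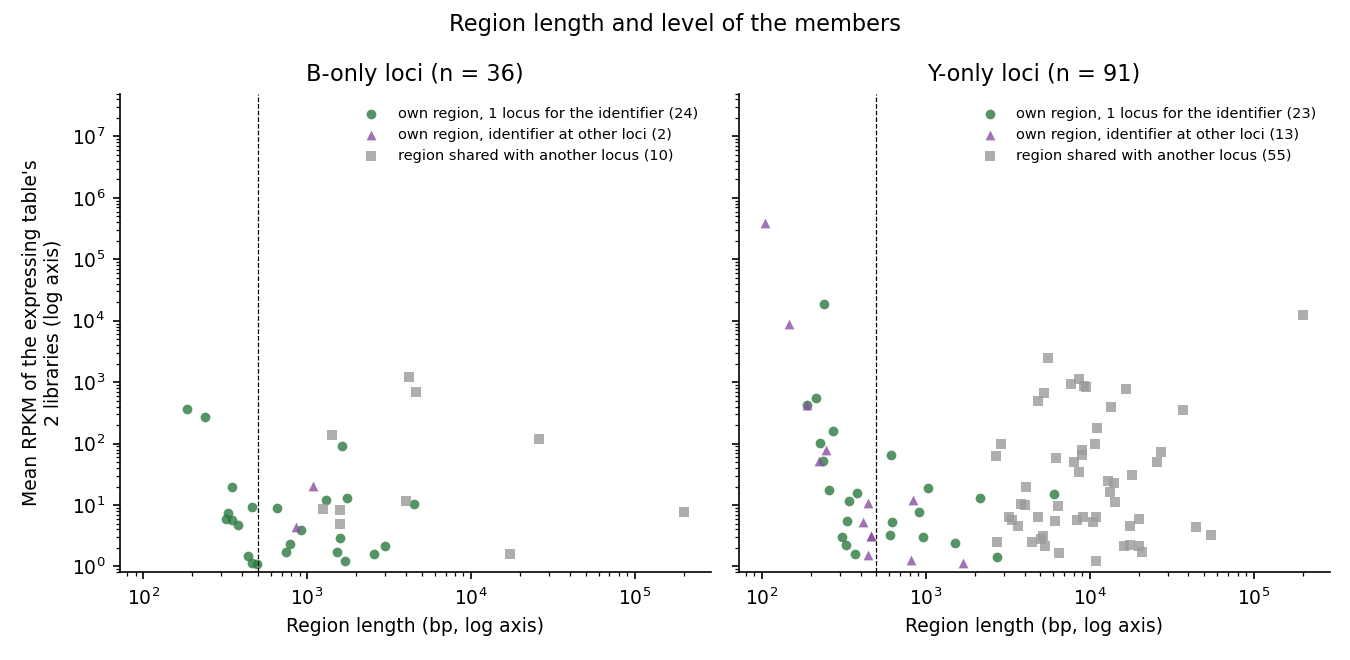
Region length in bp and mean RPKM of the expressing table's libraries (both log axes) for B-only loci (left) and Y-only loci (right), by whether the region and the identifier are the locus's own. The dashed line is 500 bp. Loci with a region of their own lie mostly at the short end, and the 55 Y-only loci in shared regions lie mostly at greater lengths, with some overlap between the kinds.

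Some loci with a region and an identifier of their own were longer than 500 bp and not close to the limit of 1 RPKM. MELO3C021980 (1635 bp, scaffold00051) had 65.9 RPKM in the second and 114 RPKM in the first B library, and 0 in both Y libraries. MELO3C015189 (4521 bp, scaffold00024) had 9.56 and 11.0 RPKM in B, and 0 in both Y libraries. MELO3C012502 (6094 bp, scaffold00017) was listed at 0 in both B libraries and had 11.0 and 18.7 RPKM in the second and first Y libraries. MELO3C021005 (2141 bp, scaffold00046) was at 0 in B and had 10.5 and 15.5 RPKM in Y. All 4 changed by less than 2-fold between the libraries of their table. These 4 were picked after their values were seen. MELO3C021980 and MELO3C021005 were still shorter than the median of such expressed loci (3542 bp in B, 3543 bp in Y). MELO3C015189 was below the median level of loci expressed in B (12.6 RPKM in the second and 13.7 RPKM in the first library). MELO3C012502 and MELO3C021005 were below that of Y in the second library (11.4 RPKM) and above it in the first (14.7 RPKM). Among loci with a region and an identifier of their own, the upper limit was 100 reads or more in the lower library for 4 B-only and 7 Y-only loci.

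Within table B, the second library was higher by 2-fold or more at 3 B-only loci, lower by as much at 9, and within 2-fold at 24. As shares these are 8.33% higher and 25.0% lower, where 18.9% and 23.5% of all loci expressed in B were higher and lower. The median log2 change was -0.46, against -0.14 over all. The B-only loci crowded into a narrow band: 15 of 36 had a log2 change between -0.5 and 0 (41.7%, against 17.1%). By the ratio of low values, the second B library was about 1.35 times as deep as the first. Equal numbers of reads in both then give a log2 change of about -0.43. Within 0.1 of that value lay 8 B-only loci (22.2%, against 7.13%). Whether low read numbers set that band was not tested.

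The 3 B-only loci that were higher in the second library rested on fewer than 10 reads, at most, in the first. MELO3C019669 at XLOC_022181, with the values above, was 8.42-fold higher. MELO3C008263 had 15.6 RPKM in the second and 2.93 RPKM in the first library. MELO3C002391 had 6.99 and 1.72 RPKM. Of the 3 lowest changes, MELO3C003385 had the lowest of all members, a log2 change of -6.50. MELO3C022631 had 1.34 RPKM in the second and 15.8 RPKM in the first library, and its partner of the same identifier and region had 0 and 565 RPKM. MELO3C025261 had 7.12 and 33.4 RPKM.

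Within table Y, 31 Y-only loci were higher in the second library by 2-fold or more, 32 were lower by as much and 28 changed less. The shares are 34.1% and 35.2%, where 16.9% and 30.3% of all loci expressed in Y were higher and lower. Changes of 2-fold or more either way covered 33.3% of B-only loci, against 42.3% of all loci expressed in B, and 69.2% of Y-only loci, against 47.2% in Y. The median log2 change was -0.13, against -0.35.

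**Figure D4:**
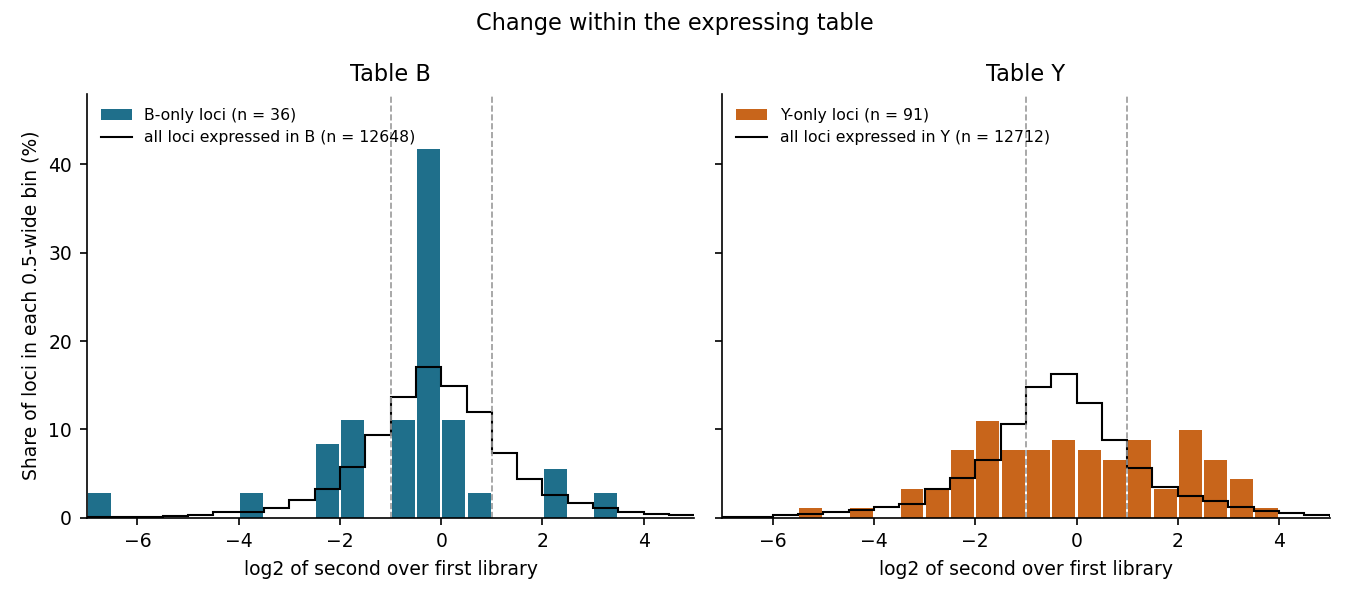
Share of loci (%) by log2 change of the second over the first library, in bins of 0.5, for members (bars) and for all expressed loci (black outline), in table B (left) and table Y (right). Dashed lines mark 2-fold. B-only loci pile up between -0.5 and 0 with 41.7% of the list, whereas 69.2% of Y-only loci lie beyond the 2-fold lines.

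The changes in Y differed with the place of the locus. Among the 23 Y-only loci with a region and an identifier of their own, 2 were higher and 10 lower in the second library, with a median log2 change of -0.76. Among the other 68, 29 were higher and 22 lower, with a median of 0.50. All loci of these 2 kinds expressed in Y were 13.7% higher and 32.2% lower, and 25.0% higher and 25.4% lower, in that order. In the 59 Y-only loci with an expressed partner, 28 members were higher and 17 lower, with a median of 0.86, whereas of the 58 partners with values above 0 in both Y libraries 9 were higher and 13 lower, with a median of -0.45. Members were thus higher in more cases than their partners. The partners were chosen by their highest value in B, so they are no neutral measure of change. For 9 of the 59, the partner lay outside the member's region.

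MELO3C018517 is one such case. The Y-only locus had 11.6 RPKM in the second and 1.21 RPKM in the first Y library. Its partner, of the same identifier and region, had 28.9 and 27.4 RPKM there, and 38.4 and 27.2 RPKM in the second and first B libraries. MELO3C008105 moved the other way, with 3.06 RPKM in the second and 98.9 RPKM in the first Y library, a log2 change of -5.02. Its partner of the same identifier had 21.3 and 31.3 RPKM there, and 36.9 and 47.1 RPKM in B. In each case the partner changed less than 2-fold in both tables.

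The remaining extremes in Y were mixed. MELO3C007129, in a region of its own of 1034 bp, had the highest change, with 34.6 RPKM in the second and 2.91 RPKM in the first library, a log2 change of 3.57. MELO3C017954 had 333 and 31.9 RPKM, in a region overlapped by 3 other loci. Its partner among them, MELO3C017955, also was higher, with 38.0 and 13.7 RPKM in Y, and 35.6 and 9.23 RPKM in B. MELO3C012776 had 6.08 and 118 RPKM, a log2 change of -4.28. MELO3C001934 had 146 and 1597 RPKM. Its overlapping neighbour MELO3C001933 was lower in the second library as well, with 392 and 2806 RPKM in B, and 773 and 2076 RPKM in Y.

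No member passed the submitters' own test. In the authors' deposited table for B, 0 B-only loci had a q-value under 0.05, a limit passed by 0.22% of the loci expressed and tested in B. In the authors' deposited table for Y it was 0 Y-only loci, against 0.165%. At an unadjusted p-value under 0.05 the authors' deposited tables also held 0 members, where 5.2% of tested expressed loci passed in B and 4.89% in Y. The lowest p-value of a B-only locus in the authors' deposited table was 0.0517, for MELO3C022631, with a q-value of 0.761. The lowest of a Y-only locus in the authors' deposited table was 0.149, for MELO3C002853, with a q-value of 0.724. In B, 8 of the 36 loci were marked there as not tested, and in Y all 91 were tested. The sources used here do not say how that test gauged the spread from 1 library.

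Among loci with 1 identifier, no block of members with different identifiers was seen along the scaffolds. The 36 B-only loci lay on 28 scaffolds, 21 of which held 1, and the 91 Y-only loci on 52 scaffolds, 32 of which held 1. No B-only and no Y-only locus had another locus of its own kind, with a different identifier, as its next locus, counting loci with 1 identifier. Of all loci expressed in B, 0.158% had a B-only locus next to them, and of those expressed in Y, 0.519% had a Y-only one. With shares this low, lists of 36 and 91 loci can show little about neighbours. The longest run of successive members was 2 loci in each list, and both runs were 1 identifier listed at 2 loci, MELO3C019669 and MELO3C012719.

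Pairs within 50000 bp were few, as they were over all expressed loci. No B-only locus had another B-only locus of a different identifier that close (0.980% of all loci expressed in B had one). Of the Y-only loci, MELO3C019507 and MELO3C019511 on scaffold00038 did, 42535 bp apart with 3 loci of 1 identifier between them (3.21% of all loci expressed in Y had one). Of the B-only loci, 2 had a Y-only locus of a different identifier that close, and the share over all expressed loci was not computed. Y-only MELO3C025714 and B-only MELO3C025715 on scaffold00082 were 15086 bp apart with no other locus of 1 identifier between them. MELO3C025715 had 1.20 RPKM in the second and 1.76 RPKM in the first B library, and 0 in Y. MELO3C025714 had 0 in B, and 2.89 and 3.19 RPKM in the second and first Y libraries. The other pair, Y-only MELO3C008434 and B-only MELO3C008436 on scaffold00008, was 26591 bp apart with 2 such loci between.

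**Figure D5:**
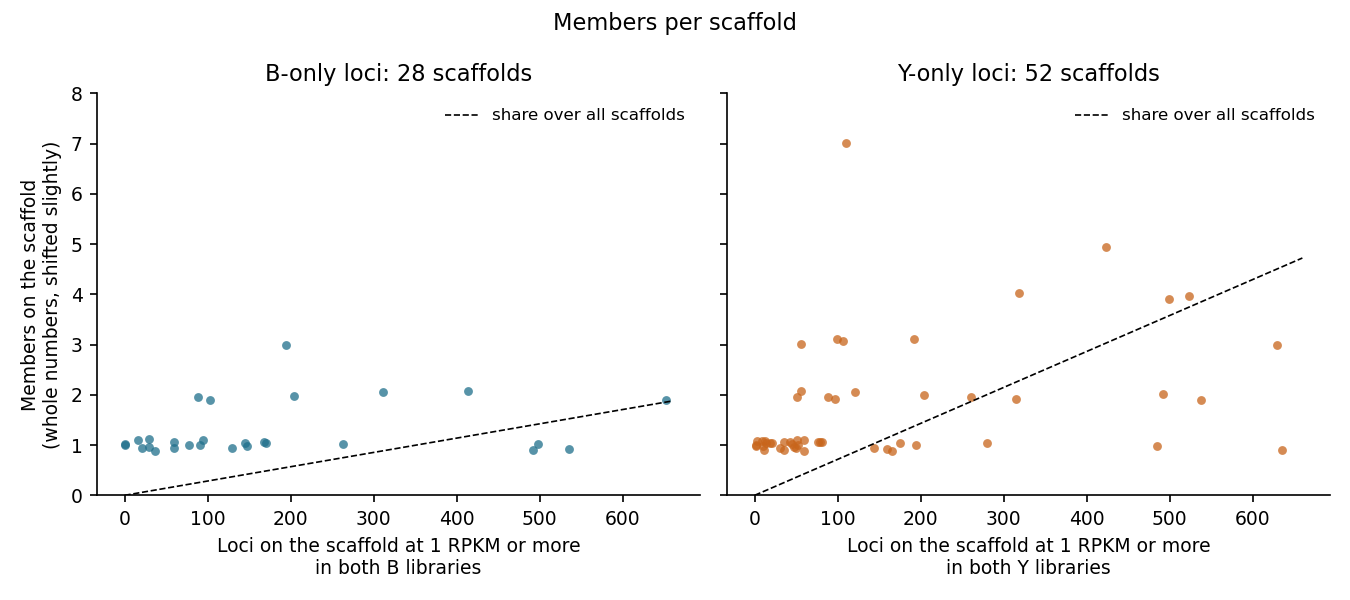
Number of B-only loci (left) and Y-only loci (right) on each scaffold that holds any, against the number of loci on it at 1 RPKM or more in both libraries of that table. The dashed line is the share over all scaffolds. The Y-only point at 7 is scaffold00017, with 110 expressed loci, and no scaffold holds more than 3 B-only loci.

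By number, scaffold00017 held the most members of either kind, with 7 Y-only loci of 6 identifiers among 110 loci expressed in Y (6.36%). They were spread from MELO3C012502 at 254551 bp to MELO3C012776 at 6182002 bp, with 6 of the 7 in regions shared with another locus. It held 2 B-only loci as well, MELO3C012599 and MELO3C012753. By number, scaffold00026 held the most B-only loci, 3 among 195 loci expressed in B (1.54%), although other scaffolds had a larger share, such as scaffold00039 with 2 among 89 (2.25%). Those were MELO3C015850, with 4.85 RPKM in the second and 19.3 RPKM in the first B library, MELO3C015747, with 4.20 and 18.8 RPKM, and MELO3C015696, with 3.90 and 11.2 RPKM. All of them were at least 2-fold lower in the second library, at starts of 2636110, 935312 and 192788 bp in that order.

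Silent surroundings were more common around members than around expressed loci at large. Of 68 flanking loci of B-only members, 22 were at 0 in all 4 libraries (32.4%, against 17.3% around all loci expressed in B) and 22 were at 1 RPKM or more in all 4 (32.4%, against 53.6%). Of 178 flanking loci of Y-only members, 46 were at 0 in all 4 (25.8%, against 17.2%) and 74 were expressed in all 4 (41.6%, against 53.5%). These shares describe the 4 libraries and were not tested.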

How the data were processed

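Messenger RNA of 4 libraries was sequenced, and the authors deposited 2 tables of 32625 loci with an RPKM value per library and a p-value and q-value for the pair, per the file headers. The submitters' processing notes name CASAVA and TopHat2, without versions. The sources used here give neither a quantification tool nor a build, beyond the CM3.5 at the start of locus names. The tables were joined by locus. The log2 changes were computed from the deposited RPKM values without a pseudocount. Coordinates are those of the tables, counted from 1. Depth was judged from the first percentile of RPKM times region length, taken as 1 read, and by the ratio of low values shared by 2 libraries. With 1 library per cultivar and treatment, nothing was tested. The loci named are the 6 highest by mean RPKM, the 3 highest and 3 lowest changes, the longest runs and the loci at the limits, for each list. Other loci named (close pairs, members of the scaffolds with most members, examples of a partner or of a long region) were chosen after their values were seen. Members, lists and limits were chosen with earlier results of these data known. The procedures were checked on simulated data. Calculations used Python 3.11.15, numpy 2.4.6, pandas 2.3.3 and matplotlib 3.10.9. No sequence is shown, since no genome of this build was used here.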

Additional observations from a re-analysis of the deposited data

How the results depend on the processing

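For the 6 results that are counts, 37 of 56 alternative values stayed within 1.5 times the reported count. Several alternatives could hardly move a count, such as requiring an exact 0 or counting each identifier once. The number 37 therefore overstates how stable the counts are. The 2 shares of members with a neighbour of their kind, both 0, stayed 0 under 7 of 8 alternatives, and with a neighbour within 50000 bp the Y-only share was 2.20%. No paired analysis was possible because no result comes from a test. The B-only list of 36 held 23 loci at a required 2 RPKM and 13 at 5 RPKM, and the Y-only list of 91 held 43 at 5 RPKM. With 1 library of each table deciding, the lists ran from 153 to 322 B-only loci and from 494 to 713 Y-only loci, so each list depends on both libraries. Without shared regions 36 Y-only loci were left, of which 7 were higher and 13 lower in the second library. At a 4-fold limit, 5 B-only loci were lower, and 20 Y-only loci were higher and 15 lower. The next 2 alternatives were chosen after seeing the data. With a region and an identifier of their own, 23 Y-only loci were left (2 higher, 10 lower), and of the B-only loci left, 1 was higher and 5 lower. With values summed over each identifier's loci, 45 Y-only identifiers were left. Depth limits the weak loci: by the estimated worth of a read, 15 B-only and 9 Y-only loci rest on fewer than 10 reads in a library.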

Other observations

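Loci without an identifier showed the same pattern of values in a larger share than loci with 1 identifier on scaffolds. On scaffolds, 29 loci without an identifier were at 1 RPKM or more in both B libraries and below 0.05 RPKM in both Y libraries (2.75% of such loci expressed in B), and 65 showed the reverse (5.58% of those expressed in Y). On unplaced contigs it was 5 (1.14%) and 42 (7.95%). Loci with several identifiers on scaffolds gave 1 of each kind, 0.112% of those expressed in B and 0.112% of those expressed in Y, which is a smaller share than the 0.285% and 0.716% of loci with 1 identifier. Y-only outnumbered B-only among loci without an identifier as well, on scaffolds and on contigs.

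Identical values occurred at places on different scaffolds. Whether these places share sequence was not tested. MELO3C008434 on scaffold00008, 247 bp long, and MELO3C026126 on scaffold00088, 8990 bp long, both had 132.266 RPKM in the second and 25.5759 RPKM in the first Y library. MELO3C002361, also Y-only, had the same pair of values, 98.4915 and 19.7166 RPKM, as MELO3C022219, which is not a member. Of all loci expressed in Y, 4 shared both values with another, and 3 of these 4 were Y-only members. In B, 4 expressed loci did, none of them a member.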
